A study of Daphnia magna with 2 samples.

Results

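Heat shock proteins and chaperonins were examined in single cells of the water flea Daphnia magna. They were the genes whose human-derived symbol begins with HSPA, HSPB, HSPD, HSPE, HSPH, HSP90, DNAJ, or CCT followed by a digit, together with TCP1. HSPA5 was left out, and no symbol began with HSPH. The rule found 65 of the 33957 genes in the deposited gene lists, and 62 of them carried an assembly identifier that begins with DAPMA1, a prefix not repeated here. Families were set by the start of the symbol alone, so that all genes with an HSPA name, HSPA4L included, are called Hsp70 genes here. By family there were 17 Hsp70 genes, 26 J-domain genes, 3 Hsp90 genes, 12 genes of the chaperonin TRiC (also called CCT), 1 Hsp60 gene, 1 Hsp10 gene and 5 genes with an HSPB name.

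The study has 2 samples, 1 in each group, both of dissociated whole bodies handled by a standard Daphnia protocol. The mixed sample is labelled for male, female, young and old animals, and the young sample for young animals. Collagenase at 4 mg/ml served for dissociation of both, and polyA RNA was barcoded by inDrops, which encloses single cells in droplets and counts unique molecular identifiers (UMIs). Barcodes carry a library code, 7 codes in the mixed sample and 3 in the young sample, which the labels do not assign to a sex, an age or a body part, so the codes are treated as units within 1 sample and not as replicates. No test between the samples was possible, and every interval below is an exact 95% interval that covers counting error only.

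Chaperones bind unfolded or partly folded proteins. Hsp70 proteins clamp onto exposed hydrophobic stretches in a cycle driven by ATP, J-domain proteins bring them their substrates and trigger ATP hydrolysis, and Hsp90 finishes the folding of many kinases and receptors. TRiC is a double ring that encloses actin and tubulin, Hsp60 with its lid Hsp10 does the same for proteins of the mitochondrial matrix, and small heat shock proteins hold unfolded proteins without ATP. Many of these genes are active in unstressed cells and some are induced by heat or other stress, and dissociation of a tissue can itself induce some of them. The roles given below for single genes are those known from human or fly proteins.

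In barcodes of at least 500 UMIs there were 2253 mixed barcodes with a median of 940 UMIs and 2779211 UMIs in all, and 2099 young barcodes with a median of 829 UMIs and 2314350 UMIs in all. Code totals ran between 40082 UMIs in F4W and 1326669 UMIs in FYB in the mixed sample, and were 946359 in CH1, 843209 in CH2 and 524782 in Y2 in the young sample. At the depth of F4W, 41 barcodes, a single count is worth 24.9 counts per 1000000 UMIs (CPM), so its values are the least precise. Of the 65 genes, 39 had at least 50 counts over both samples and were compared. The other 26 had at most 36 counts, 13 of them had none in these barcodes and 6 had none in any deposited barcode. Identical identifiers recurred among them: of 7 HSPA4L genes with identifier EVG022729, 1 held 1147 of 1149 counts, and 4 CCT8 genes held 2 counts in all, so the CCT8 subunit of TRiC could not be described. How the authors' counting treated such copies is not given in the sources used here, and reads of near-identical genes may be split among them or lost.

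Together the 65 genes made up 9637 CPM of the mixed sample (9522 to 9753) and 7762 CPM of the young sample (7648 to 7876), a ratio of 1.24 (1.22 to 1.27), and of 1.88 over every deposited barcode. The codes of each sample spread more widely than that. The summed level was lowest in FYH at 5284 CPM, had its median at 10203 CPM and was highest in MY2 at 13649 CPM in the mixed sample, against 8262 CPM in CH1, 8911 CPM in CH2 and 5012 CPM in Y2 in the young sample. The 2 samples' codes overlapped, with FYH and FYB, at 7683 CPM, below both CH1 and CH2. In single barcodes the share of UMIs from the 65 genes had a median of 0.797% in mixed and 0.475% in young barcodes, and its highest value was 4.04% in a mixed and 3.61% in a young barcode.

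The families did not share 1 ratio. J-domain genes summed to 2079 CPM in the mixed sample and 1328 CPM in the young sample, a ratio of 1.57 (1.50 to 1.64), and of 2.40 over every deposited barcode. Their mixed codes ran between 1765 CPM in FYH and 2470 CPM in F4W with a median of 2287 CPM, against 1449 CPM in CH1, 1427 CPM in CH2 and 951 CPM in Y2, so that every mixed code was above every young one. Hsp90 genes were at 1709 CPM in the mixed and 1684 CPM in the young sample, a ratio of 1.01 (0.972 to 1.06). That ratio depended on the depth of the barcodes used, being 1.84 over every deposited barcode and 0.661 over barcodes of at least 2000 UMIs. Their codes ran between 694 CPM in FYH and 3243 CPM in F4W with a median of 2003 CPM, against 1794 CPM in CH1, 2111 CPM in CH2 and 800.3 CPM in Y2. FYH and Y2 were the lowest codes of their samples, and the codes overlapped.

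Hsp70 genes summed to 3229 CPM in the mixed sample and 2834 CPM in the young sample, a ratio of 1.14 (1.10 to 1.18). Their lowest, median and highest mixed codes were 1650 CPM in FYH, 3035 CPM and 5160 CPM in MY2, against 2968 CPM in CH1, 3178 CPM in CH2 and 2039 CPM in Y2. TRiC genes summed to 2259 CPM in the mixed and 1757 CPM in the young sample, a ratio of 1.29 (1.24 to 1.34), and of 1.98 over every deposited barcode. Their mixed codes ran from 965 CPM in FYH over a median of 2217 CPM to 3419 CPM in MY2, against 1875 CPM in CH1, 2026 CPM in CH2 and 1113 CPM in Y2. For both families MY1, MY2 and F4W lay above every young code, as did FO2 for TRiC. FYH lay below every young code for both, and the remaining mixed codes lay within the range of the young ones.

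**Figure D1:**
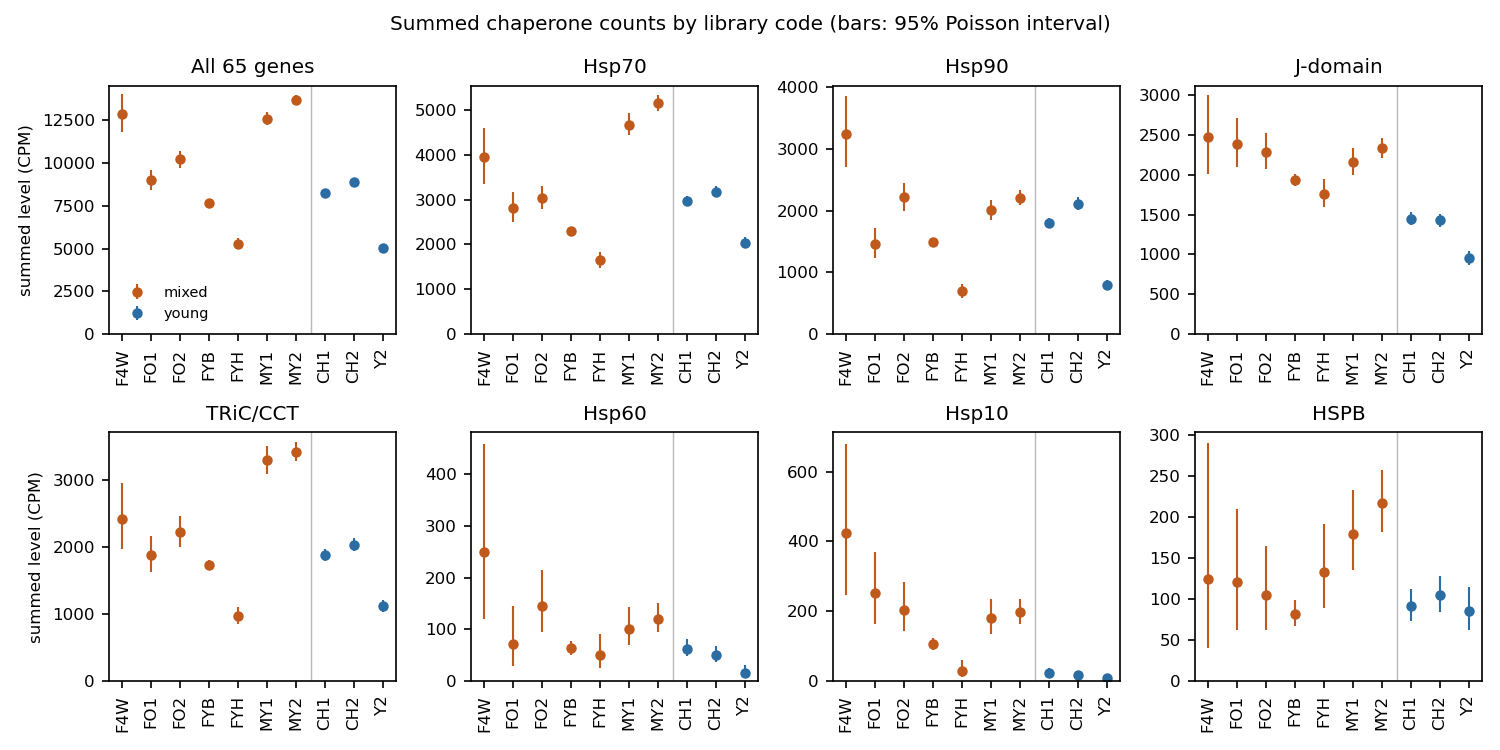
Summed level of the 65 genes and of each family in CPM (vertical axes, linear from 0) in each library code, with mixed codes on the left and young codes on the right of the line; points are values and bars exact 95% Poisson intervals. The mixed codes FYH (5284 CPM over all genes) and MY2 (13649 CPM) mark the ends of the spread, Y2 is the lowest young code at 5012 CPM, and for J-domain and Hsp10 genes all mixed codes are above all young ones.

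FYH was the lowest mixed code for 25 of the 39 genes and Y2 the lowest young code for 31 of 39, while MY2 was the highest mixed code for 14 and F4W for 11. F4W, the code with the fewest UMIs, was also the lowest for 6. Such lowest and highest codes were not counted over all genes, so these counts are not shown to be particular to the 39. Against the other codes of its sample FYH was at least 2-fold lower in 20 of 37 genes with at least 50 counts in the mixed sample, beside 30.7% of all 6624 genes compared, and at least 2-fold higher in 1, beside 7.64%. Y2 was at least 2-fold lower in 11 of 29 genes with at least 50 counts in the young sample, beside 32.7% of all 5638 genes, and higher in 0, beside 18.2%. MY2 was at least 2-fold higher in 10 of 37, beside 25.5%, a share close to that of all genes, and lower in 1, beside 20.1%. The 10 were CCT3, CCT2, HSPA8 (EVG026808), HSPA8 (EVG024963), HSPA12A, HSPA14, HSPBP1, HSPBAP1, DNAJC8 and DNAJC9 (EVG023967).

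The remaining codes departed from their sample in fewer of the 37 or 29 genes. MY1 was at least 2-fold higher in 4, beside 13.7% of all genes, and lower in 0, beside 17%. FYB was higher in 0, beside 10.6%, and lower in 7, beside 25%. FO2 was higher in 1, beside 5.77%, and lower in 2, beside 17.4%. CH1 was higher in 0 and lower in 0, beside 2.66% and 6.01%, as was CH2, beside 2.45% and 10.4%. F4W and FO1 held under 100000 UMIs and were not compared in this way.

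Between the samples, 7 of the 39 genes were at least 4-fold higher in the mixed sample, beside 13.6% of all 8011 genes compared, and 0 were 4-fold lower, beside 11.1%. At least 2-fold higher were 13, beside 32.8% of all genes, and 2-fold lower 0, beside 16.9%. Of the 39, 32 were higher and 7 lower in the mixed sample, with a median log2 ratio of 0.72, while all genes compared had a median of 0.52 with 5439 higher and 2572 lower. The 13 past 2-fold are 33.3% of the 39, close to the share of all genes. With the trimmed mean scaling of edgeR (TMM) every log2 ratio is lower by 0.42, the median of all genes becomes 0.10, and every ratio above 1 with a log2 under 0.42 turns under 1. These are all 65 genes together (0.928), TRiC (0.962), Hsp70 (0.852) and Hsp90 (0.759), and the single genes HSPA8 (EVG024963), HSPA4L, HSP90B1, CCT3, CCT4, CCT6A, CCT7, DNAJC12, DNAJC13 and the TCP1 gene with more counts. These ratios are of sums over all barcodes, in which more cells of a type and more RNA per cell cannot be told apart.

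**Figure D2:**
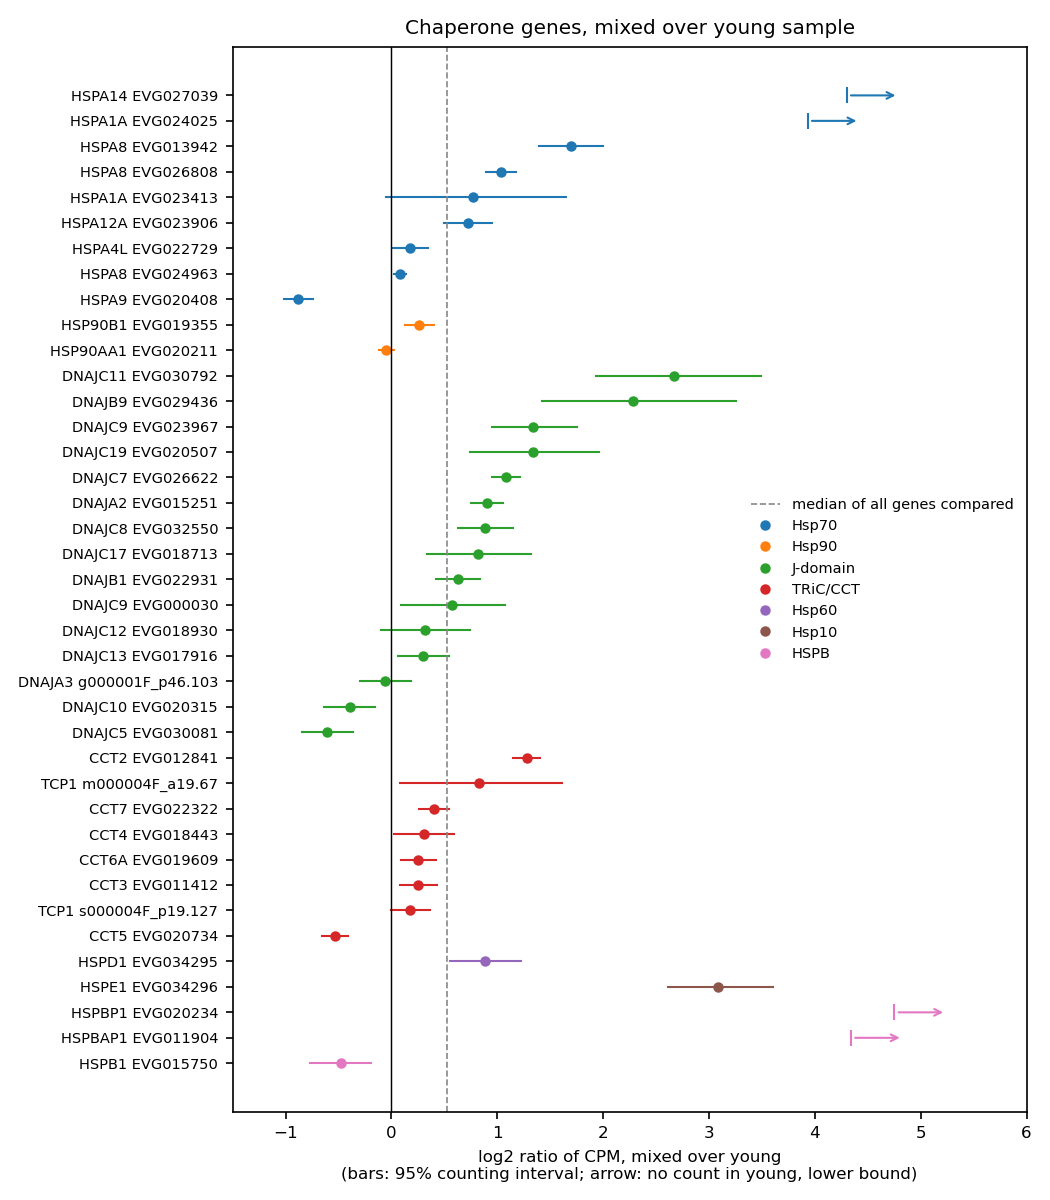
Log2 ratio of CPM, mixed over young, for the 39 genes compared, by family (horizontal axis, points with exact 95% counting intervals). Arrows mark genes with no count in the young sample and start at the ratio with a floor of 3 counts. The axis label calls that start a lower bound, but the counting interval can reach below it. The dashed line is the median of all 8011 genes compared, 0.52; HSPE1 at 3.09 and HSPA9 at -0.88 stand at the ends of the genes with counts in both samples.

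HSPE1 (EVG034296), the Hsp10 lid of mitochondrial Hsp60, was 8.50-fold higher in the mixed sample (6.11 to 12.1), with 398 counts or 143 CPM in the mixed and 39 counts or 16.9 CPM in the young sample, and 14.8-fold higher over every deposited barcode. Its mixed codes ran between 27.6 CPM in FYH and 424 CPM in F4W with a median of 196 CPM, against 23.2 CPM in CH1, 15.4 CPM in CH2 and 7.62 CPM in Y2. All 7 mixed codes were above all 3 young codes, FYH by a narrow margin. Its partner HSPD1 (EVG034295), the Hsp60 ring, is numbered on the same contig and was 1.84-fold higher (1.46 to 2.33), at 86.7 CPM in the mixed and 47.1 CPM in the young sample, and 3.52-fold higher over every deposited barcode. HSPD1 had 50.5 CPM in FYH, a median of 101 CPM and 249 CPM in F4W among the mixed codes, against 62.3 CPM in CH1, 49.8 CPM in CH2 and 15.2 CPM in Y2. The lid and the ring were both highest in F4W and lowest in FYH, and in the young sample both highest in CH1 and lowest in Y2, yet their ratios between the samples differed and their intervals did not overlap.

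In all, 9 of the 39 genes were higher in every mixed code than in every young code, beside 11% of all genes, and 1 was lower in every mixed code, beside 10.9%. The 9 were HSPE1, HSPA8 (EVG013942), HSPA14, HSPBP1, DNAJA2, DNAJB9, DNAJC7, DNAJC11 and DNAJC19. The 1, named after its values were seen, was HSPA9 (EVG020408), named for the Hsp70 of the mitochondrial matrix in human. Its fly name here, HSC70, is also that of HSPA5, the Hsp70 of the endoplasmic reticulum, and so gives no compartment. HSPA9 had 124 CPM in FYH, a median of 316 CPM and 398 CPM in MY2 in the mixed sample, against 464 CPM in CH1, 399.7 CPM in CH2 and 747 CPM in Y2, so that MY2 and CH2 nearly met. Its ratio was 0.544 (0.496 to 0.596), with 274.5 CPM in the mixed and 504.7 CPM in the young sample, and 0.633 (0.572 to 0.701) with Y2 left out.

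Among cytosolic Hsp70 genes, 3 genes named HSPA8, the constitutive Hsc70, differed in pattern. HSPA8 (EVG024963), the member with the most counts, had 4981 counts or 1792 CPM in the mixed and 3922 counts or 1695 CPM in the young sample, a ratio of 1.06 (1.01 to 1.10) that is under 1 with TMM scaling. In the mixed sample it was lowest in FYH at 1043 CPM, had a median of 1555 CPM and reached 3023 CPM in MY2, against 1814 CPM in CH1, 2018 CPM in CH2 and 958.5 CPM in Y2. The groups overlapped, and MY1 and MY2 stood above every young code.

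HSPA8 (EVG026808) was 2.05-fold higher (1.86 to 2.26) in the mixed sample, at 530.4 CPM, against 258.8 CPM in the young sample. It ran from 138 CPM in FYH over a median of 512 CPM to 887.5 CPM in MY2 in the mixed sample, against 287 CPM in CH1, 311 CPM in CH2 and 124 CPM in Y2. Without MY1 and MY2 its ratio was 1.43. HSPA8 (EVG013942) was 3.23-fold higher (2.63 to 4.00), with 162 CPM in the mixed and 50.1 CPM in the young sample. It ran from 87.3 CPM in FYH over a median of 186 CPM to 261 CPM in FO1 in the mixed sample, against 61.3 CPM in CH1, 62.9 CPM in CH2 and 9.53 CPM in Y2, with no overlap.

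Genes named HSPA1A, the heat-inducible Hsp70 in human, were near the limit of detection in both samples. HSPA1A (EVG023413) had 39 counts in the mixed and 19 counts in the young sample, a ratio of 1.71 (0.964 to 3.13). HSPA1A (EVG024025) had 55 counts in the mixed sample, with 45.7 CPM in MY1 and 55.1 CPM in FYH and none in F4W, FO1 or FO2, and 0 counts in the young sample. With the young sum set to a floor of 3 counts its ratio was 15.3, a value that depends on the floor and is not a lower bound. The gene also had no count in any deposited young barcode, which held of 2 of the 39 genes and of 3.25% of all genes compared. HSPA14, which in human sits at the ribosome, had 71 counts in the mixed and 0 in the young sample, a ratio of 19.7 at the same floor, though FYH held only 4.60 CPM, which is 1 count. As the floor rests on the young UMIs, these ratios were lower with a young code left out: 9.02 without CH1 and 9.70 without CH2 for HSPA1A (EVG024025), and 11.6 and 12.5 for HSPA14.

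The Hsp90 family consisted of HSP90AA1, the cytosolic form that corresponds to fly Hsp83, and HSP90B1, the form of the endoplasmic reticulum, while HSP90AB1 had only 20 counts in the mixed and 8 in the young sample. HSP90AA1 had 1309 CPM in the mixed and 1353 CPM in the young sample, a ratio of 0.967 (0.922 to 1.01). It ran from 478 CPM in FYH over a median of 1491 CPM to 2894 CPM in F4W in the mixed sample, against 1439 CPM in CH1, 1720 CPM in CH2 and 609.8 CPM in Y2. HSP90B1 was at 393 CPM in the mixed and 327.5 CPM in the young sample, a ratio of 1.20 (1.09 to 1.32) that is under 1 with TMM scaling, with 216 CPM in FYH, a median of 349 CPM and 511 CPM in MY2 in the mixed sample, against 349 CPM in CH1, 389 CPM in CH2 and 191 CPM in Y2. Codes overlapped for both genes, and FYH and Y2 were the lowest codes of their samples for both.

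J-domain proteins are the most numerous family, and 12 of its 15 compared genes were higher in the mixed sample, beside 5439 of all 8011 genes compared. DNAJC12 and DNAJC13 were among the 12 only without TMM scaling. DNAJC7, a co-chaperone that contacts both Hsp70 and Hsp90, was 2.11-fold higher (1.93 to 2.32), at 578 CPM in the mixed and 274 CPM in the young sample. It had 352 CPM in MY1, 376 CPM in MY2 and between 580.4 and 781 CPM in the other mixed codes, against 287 CPM in CH1, 254 CPM in CH2 and 280.1 CPM in Y2. No codes overlapped, and unlike for most of the 39 genes MY1 and MY2 were the lowest mixed codes and FYH the highest. DNAJA2, a general partner of cytosolic Hsp70, was 1.87-fold higher (1.68 to 2.08), at 405 CPM in the mixed and 217 CPM in the young sample. It had 262 CPM in FYH, a median of 421.5 CPM and 470.5 CPM in MY2 among the mixed codes, against 243 CPM in CH1, 244 CPM in CH2 and 126 CPM in Y2, and FYH was just above CH2.

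DNAJC11, which in human is found at mitochondria, was 6.37-fold higher (3.83 to 11.3), with 130 counts or 46.8 CPM in the mixed and 17 counts or 7.35 CPM in the young sample. DNAJC19, of the mitochondrial import motor, was 2.52-fold higher (1.68 to 3.89), with 97 counts or 34.9 CPM in the mixed and 32 counts or 13.8 CPM in the young sample. DNAJA3, a mitochondrial protein known in fly as the tumour suppressor Tid, was at 112 CPM in the mixed and 117 CPM in the young sample, a ratio of 0.959 (0.812 to 1.13).

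DNAJB9, a partner of the Hsp70 of the endoplasmic reticulum in human whose fly name here is Droj2, was 4.87-fold higher (2.68 to 9.56), with 76 counts in the mixed and 13 in the young sample. DNAJC9 (EVG023967), named for a histone chaperone, was 2.53-fold higher (1.93 to 3.36), with 104 CPM in MY1, 154 CPM in MY2 and between 23.2 and 60.2 CPM in the other mixed codes, against 30.6 CPM in CH1, 37.9 CPM in CH2 and 19.1 CPM in Y2. Without MY1 and MY2 its ratio was 1.56. The J-domain genes with a ratio under 1 were DNAJC5, the cysteine string protein of synaptic vesicles, at 0.657 (0.555 to 0.777), DNAJA3, and DNAJC10, a disulfide reductase of the endoplasmic reticulum, at 0.761 (0.644 to 0.899). Their codes overlapped between the samples.

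TRiC is built from different subunits, and their ratios ran from 0.691 to 2.42. CCT2 was 2.42-fold higher (2.22 to 2.64), at 744 CPM in the mixed and 307 CPM in the young sample. It had 312.5 CPM in FYH, a median of 667.5 CPM and 1295 CPM in MY2 among the mixed codes, against 348 CPM in CH1, 328.5 CPM in CH2 and 200.1 CPM in Y2. CCT5 was lower, at 341 CPM in the mixed and 493 CPM in the young sample, a ratio of 0.691 (0.634 to 0.754). CCT5 had 161 CPM in FYH, a median of 351 CPM and 474 CPM in F4W among the mixed codes, against 523 CPM in CH1, 617 CPM in CH2 and 242 CPM in Y2, and so MY1 (339 CPM) and MY2 (308 CPM) were not raised for this subunit.

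CCT3 showed the widest gap between MY1 and MY2 and the rest. It had 469.7 CPM in MY1, 492 CPM in MY2 and between 64.3 and 157 CPM in the other mixed codes, against 206 CPM in CH1, 215 CPM in CH2 and 152 CPM in Y2. Its ratio was 1.19 (1.06 to 1.35), became 0.821 without MY2 and 1.78 without FYB, and was 0.563 without both MY1 and MY2. The other subunits lay between these, and with TMM scaling all but the last turn under 1: CCT7 had 1.32 (1.20 to 1.46), CCT4 1.24 (1.02 to 1.51), CCT6A 1.19 (1.06 to 1.34), and the 2 TCP1 genes 1.13 (0.995 to 1.28) with 578 counts in the mixed and 426 in the young sample, and 1.77 (1.06 to 3.05) with 49 counts in the mixed and 23 in the young sample. The TCP1 genes share an identifier, and their separate values are uncertain.

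Of the HSPB names, only HSPB1 denotes a small heat shock protein. HSPB1 (EVG015750), whose fly name is CG14207, was lower in the mixed sample, with 188 counts or 67.6 CPM in the mixed and 218 counts or 94.2 CPM in the young sample, a ratio of 0.718 (0.588 to 0.877). It ran from 24.9 CPM in F4W over a median of 62.0 CPM to 106 CPM in FYH in the mixed sample, against 89.8 CPM in CH1, 104 CPM in CH2 and 85.7 CPM in Y2, so that FYH was above and every other mixed code below the 3 young codes. HSPBP1, an exchange factor that releases ADP from Hsp70, had 97 counts in the mixed and 0 in the young sample. At the floor of 3 counts, which gives no lower bound, its ratio was 26.9 (15.9 without CH1, 17.1 without CH2, 17.9 without MY1 and MY2). HSPBAP1, whose fly name is the replication factor Psf2, had 73 counts in the mixed and 0 in the young sample, a ratio of 20.3 at this floor, but MY2 held 60.3% of its counts. The ratio of HSPBAP1 was 10.3 without MY2, 4.16 without MY1 and MY2, 37.2 without FYB, 12.0 without CH1 and 12.9 without CH2.

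To see which cells carried these transcripts, barcodes of both samples were clustered without the 65 genes. The clusters described are those where the 65 genes together were highest or lowest, chosen after their values were seen. In the mixed sample the summed level was highest in cluster 5, at 14856 CPM over 508 barcodes, and in cluster 2, at 14390 CPM over 318 barcodes, of 20 clusters with at least 20 mixed barcodes. It was lowest in the epidermis-like cluster 19, at 1912 CPM over 40 barcodes. In the young sample the highest were cluster 30, at 21738 CPM over 27 barcodes with a median of 2664 UMIs, and cluster 9, at 16259 CPM over 206 barcodes with a median of 1378 UMIs, of 18 clusters. Low levels were found in cluster 22, at 2035 CPM over 47 barcodes, and in cluster 27, at 2479 CPM over 441 barcodes with a median of 616 UMIs.

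Cluster 5 had 15 young and cluster 2 had 25 young barcodes, and clusters 9, 27 and 30 had 0 mixed barcodes. They also leaned to single codes. MY2 held 64.6% of the mixed barcodes of cluster 5, FYB 67.3% of those of cluster 2, and Y2 76.9% of cluster 27. Over all clusters MY2 held 452 and FYB 1103 of the 2253 mixed barcodes, and Y2 557 of the 2099 young ones. F4W had 25 of its 41 barcodes in cluster 2. Inside the codes with at least 10 barcodes in these clusters, the level differed between cluster and other barcodes in the same direction, by differing amounts. In MY2 the summed level was 15083 CPM in cluster 5 and 8982 CPM in the other barcodes, and in MY1 15158 CPM in the cluster and 7184 CPM outside it. In FYB, with 13 barcodes in cluster 5, the summed level was 9927 CPM in the cluster and 7634 CPM outside it. In FYB it was 14193 CPM in cluster 2 and 5507 CPM in the others, in FYH 14787 CPM in the cluster and 4350 CPM outside it, and in F4W 16477 CPM in the cluster and 7773 CPM outside it. In CH1 it was 15245 CPM in cluster 9 and 6665 CPM in the others, and in CH2 17704 CPM in the cluster and 6839 CPM outside it. In Y2 it was 2486 CPM in cluster 27 and 7059 CPM in the others, a value nearer to those of CH1 and CH2. Outside cluster 27 the young sample had 8557 CPM, and the ratio of the samples was then 1.13 (1.10 to 1.15).

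Cluster 5 held 7 proliferating cell markers, with MCM6 and BUBR1 counted more than once, but none of them among its leading genes. It also held germ cell markers, with AUB at 10.3-fold, TEJ at 7.72-fold and TUD genes at 20.7-fold and 7.85-fold over the barcodes outside it. Cluster 9 held 4 proliferating cell markers besides markers of other classes, and neither cluster was given a name. Cluster 2 met the naming rule for hemocytes on 4 genes, all named PXDN after peroxidasin. It also held markers of proliferating cells and of germ cells, with BOL at 7.08-fold and a TUD gene at 5.59-fold, so it is called by its number. Clusters 2 and 9 held some of the same marker genes, among them genes named PXDN, CYCB, CHT5, CP1 and TUD. Cluster 27 held at most 2 and cluster 30 at most 3 markers of any class, none of them among the leading genes.

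Each cluster differed from the other barcodes of its sample in a different set of the 65 genes. In cluster 5, 16 of 37 genes were at least 2-fold higher, beside 33.3% of all genes, and 2 were lower, beside 25.3%. The median log2 ratio was 0.90 for the 37 genes and 0.43 for all genes. CCT3 was 3.83-fold higher at 521 CPM in cluster 5 and 136 CPM in the others, CCT2 2.86-fold, CCT7 2.58-fold and HSPA8 (EVG024963) 2.41-fold, while CCT5 was at 0.922. HSPBAP1 had 59 of its 73 counts in cluster 5 and was 12.2-fold higher (6.73 to 23.7), and DNAJC7 and DNAJC5 were lower, at 0.554 and 0.402. HSPA1A (EVG024025) had 0 counts in cluster 5 and 55 outside it.

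In cluster 2, 10 of 37 genes were at least 2-fold higher, beside 14.6% of all genes, and 3 were lower, beside 32.7%. The median log2 ratio was 0.65 for the 37 genes and -0.29 for all genes. HSPA8 (EVG013942) was 10.7-fold higher (8.76 to 13.2), at 652 CPM in cluster 2 and 60.8 CPM in the others, and the cluster held 310 of its 450 counts. A UMI of it was found in 163 of 318 barcodes (51.3%) of the cluster at a median of 1034 UMIs, and in 6.46% of the others at 932 UMIs. In the 5 codes with at least 10 barcodes in cluster 2, the cluster had 426 CPM in F4W, 665 in FO1, 522 in FO2, 674 in FYB and 924 in FYH, and the other barcodes of these codes between 0 and 25.1 CPM. Outside these codes the gene was not confined to cluster 2: it had 127 CPM in MY1 and 122 CPM in MY2, which held 4 barcodes of the cluster each, and 99 of its counts, at 139 CPM, lay in cluster 5. DNAJC10 was 6.07-fold higher, at 324 CPM in cluster 2 and 53.4 CPM in the others, HSP90AA1 3.50-fold, DNAJC11 3.34-fold, HSPD1 3.05-fold and HSPE1 2.87-fold.

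In cluster 9, 16 of 29 genes were at least 2-fold higher, beside 27.9% of all genes, and 1 was lower, beside 35.6%, with a median log2 ratio of 1.56 for the 29 genes and 0.00 for all genes. The same HSPA8 (EVG013942) was 46.4-fold higher (25.5 to 92.8), at 286 CPM in cluster 9 and 6.15 CPM in the others, and 104 of its 116 young counts lay there. It was found in 36.4% of barcodes of the cluster and 0.581% of the others, at medians of 1378 and 804 UMIs, with 284 CPM in cluster 9 and 10.4 CPM outside it in CH1 and 323 CPM in cluster 9 and 1.47 CPM outside it in CH2. DNAJC10 was 7.95-fold higher, at 497 CPM in cluster 9 and 62.6 CPM in the others. Clusters 2 and 9, described in different samples, had some marker genes in common. In both, HSPA8 (EVG013942) and DNAJC10 had the 2 highest ratios among the genes compared. In cluster 9 all 7 compared TRiC subunits were higher, from 2.94-fold for TCP1 to 5.51-fold for CCT7.

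In cluster 30, 16 of 29 genes were at least 2-fold higher, beside 22.8% of all genes, and 1 was lower, beside 21.2%, with medians of 1.24 and 0.25 on the log2 scale. HSP90AA1 was 5.12-fold higher (4.63 to 5.66), at 6122 CPM in cluster 30 and 1195 CPM in the others, and HSPA8 (EVG024963) was 3.65-fold higher. HSPA8 (EVG013942) was not raised there, with 2 counts. Its 27 barcodes are the deepest, and at a lower clustering resolution they merge with cluster 9.

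**Figure D3:**
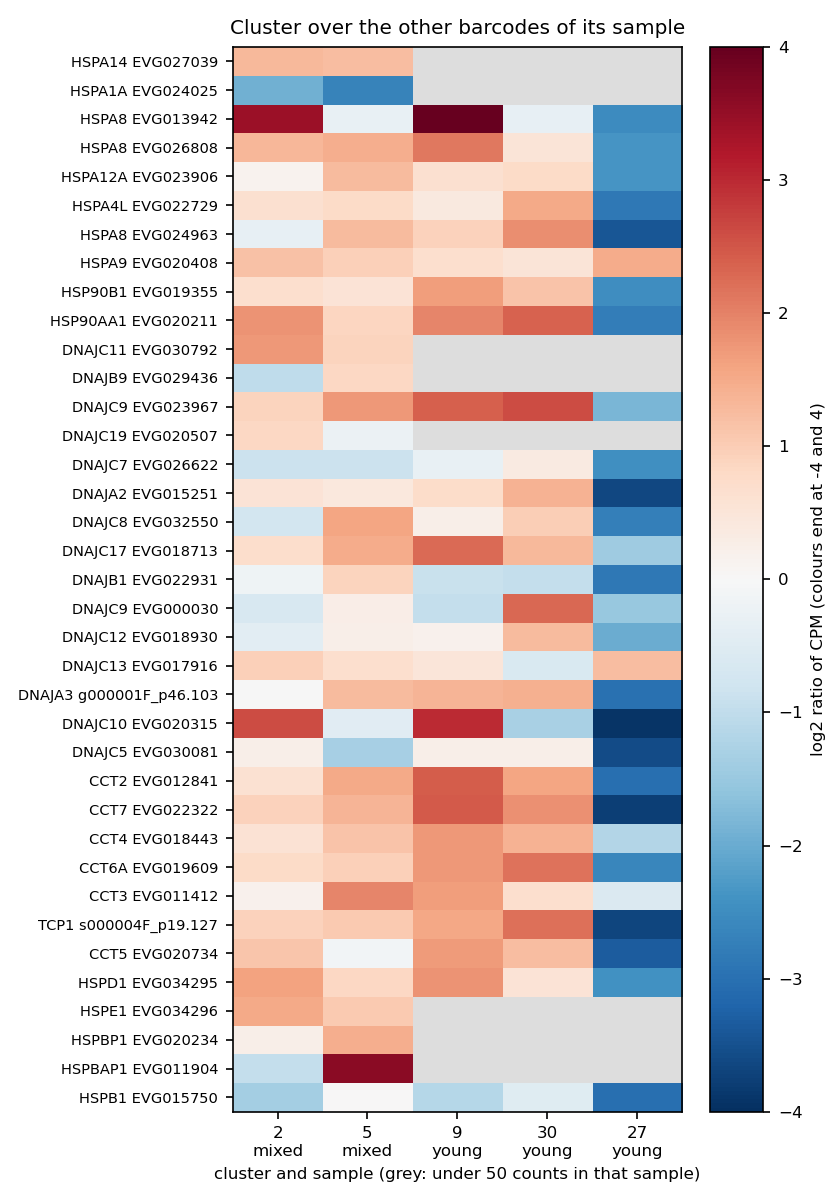
Log2 ratio of CPM in a cluster over the other barcodes of its sample, for mixed clusters 2 and 5 and young clusters 9, 30 and 27 (columns) and the 37 compared genes (rows); red is higher, blue lower, grey a gene under 50 counts in that sample, and genes with 0 counts in a cluster are drawn at the floor of 3 counts. HSPA8 (EVG013942) and DNAJC10 are the darkest red cells of clusters 2 and 9, HSPBAP1 that of cluster 5, and HSPA9 and DNAJC13 are the only red cells of cluster 27.

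Cluster 27 was low in 26 of 29 genes by at least 2-fold, beside 72.8% of all genes, and higher in 2, beside 17.4%, with a median log2 ratio of -2.60 for the 29 genes and -2.00 for all genes, so that most genes compared were low there. The 2 higher genes were HSPA9, at 1146 CPM in cluster 27 and 408 CPM in the others, 2.81-fold (2.47 to 3.19), and DNAJC13, named for an endosomal J-domain protein, at 201 CPM in cluster 27 and 85.5 CPM in the others, 2.36-fold (1.73 to 3.17). HSPA9 was high in the cluster in each code, at 1042 CPM in cluster 27 and 436 CPM outside it in CH1, 1134 CPM and 378 CPM in CH2, and 1166 CPM and 407 CPM in Y2. With cluster 27 left out, HSPA9 remained lower in the mixed sample, at a ratio of 0.673 (0.609 to 0.743). HSP90AA1 was at 224.5 CPM in cluster 27 and 1523 CPM in the others.

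Named classes were small, and 3 of them kept their name in each clustering tried: a neuron-like cluster with 68 mixed and 29 young barcodes, a muscle-like cluster with 31 mixed and 11 young, and an epidermis-like cluster with 40 mixed and 46 young barcodes. HSPB1 (EVG015750) stood out in muscle-like barcodes. It had 24 counts or 927 CPM in mixed muscle-like barcodes, 15.6-fold above the other mixed barcodes (9.69 to 24.0), and 15 counts or 1309 CPM in young muscle-like barcodes, 14.9-fold above the other young barcodes (8.16 to 25.1). A UMI was found in 12 of 31 mixed muscle-like barcodes (38.7%) and 6.08% of other mixed barcodes, at medians of 799 and 944 UMIs, and in 7 of 11 young muscle-like barcodes (63.6%) and 6.80% of other young barcodes, at 756 and 829 UMIs. In neuron-like barcodes a UMI was found in 2 of 68 mixed and 0 of 29 young barcodes. The muscle-like counts came from FYB, with 20, and MY2, with 4, in the mixed sample, and from CH1 with 2, CH2 with 3 and Y2 with 10 in the young sample.

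HSPB1 was also detected in epidermis-like barcodes, with 9 counts or 141 CPM in the mixed and 43 counts or 657 CPM in the young sample, the mixed value 2.14-fold above the other mixed barcodes (0.963 to 4.15) and the young value 8.44-fold above the other young barcodes (5.90 to 11.8). Other families were low in this class. Hsp70 genes had 204 CPM in mixed and 1880 CPM in young epidermis-like barcodes, against 3300 CPM in the other mixed and 2862 CPM in the other young barcodes. Hsp90 genes had 78.4 CPM in mixed and 275 CPM in young epidermis-like barcodes, and HSPE1 and HSPD1 had 0 counts there in both samples, where the floor of 3 counts is 47.0 CPM in the mixed and 45.8 CPM in the young sample. The other barcodes had 146.6 CPM of HSPE1 and 88.8 CPM of HSPD1 in the mixed sample, against 17.3 CPM and 48.5 CPM in the young sample, so that at this depth a lower HSPE1 level was not detectable in young epidermis-like barcodes.

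In neuron-like barcodes Hsp90 genes were at 1186 CPM in the mixed and 1316 CPM in the young sample, against 1722 CPM in the other mixed and 1689 CPM in the other young barcodes. Hsp70 genes were at 1051 CPM in mixed and 1991 CPM in young neuron-like barcodes, against 3283 CPM in the other mixed and 2845 CPM in the other young barcodes. J-domain genes were at 1817 CPM in mixed and 810 CPM in young neuron-like barcodes. DNAJC12, a J-domain protein that in human binds the hydroxylases of aromatic amino acids, had 11 counts in mixed neuron-like barcodes, 4.07-fold above the others (1.98 to 7.58), and 2 counts in young ones. DNAJC5, the synaptic vesicle chaperone, had 15 counts in mixed neuron-like barcodes, 2.56-fold above the others (1.41 to 4.30), and 5 counts in young ones, 1.22-fold (0.392 to 2.87).

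**Figure D4:**
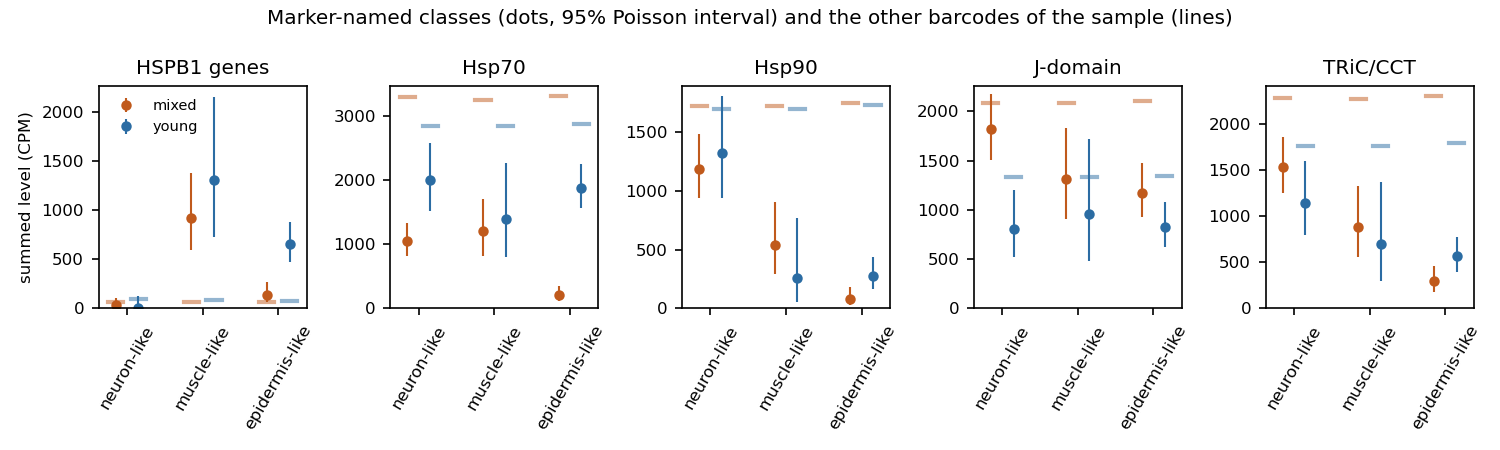
Summed level in CPM (vertical axes, linear from 0) of HSPB1 genes and 4 families in neuron-like, muscle-like and epidermis-like barcodes, mixed left of young; dots carry exact 95% Poisson intervals and short lines give the other barcodes of each sample. HSPB1 genes reach 927 CPM in mixed and 1309 CPM in young muscle-like barcodes, and the other families lie at or below their lines in most classes.

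Level also went with the number of UMIs per barcode, differently in the samples. Over barcodes of 100 to under 200, 200 to under 500, 500 to under 1000, 1000 to under 2000 and at least 2000 UMIs, the 65 genes had 9148, 8728, 9093, 9319 and 10425 CPM in the mixed sample, and 3910, 4045, 5501, 7181 and 11631 CPM in the young sample. In the deepest bin the young sample was thus the higher one. HSP90AA1 had 1899, 1459, 1229, 1213 and 1472 CPM in the same mixed bins and 669, 625, 760, 1155 and 2428 CPM in the young bins. HSPA9 ran the other way in the young sample, with 951, 901, 609, 391 and 503 CPM, while its mixed bins held 272, 249, 230, 256 and 332 CPM.

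**Figure D5:**
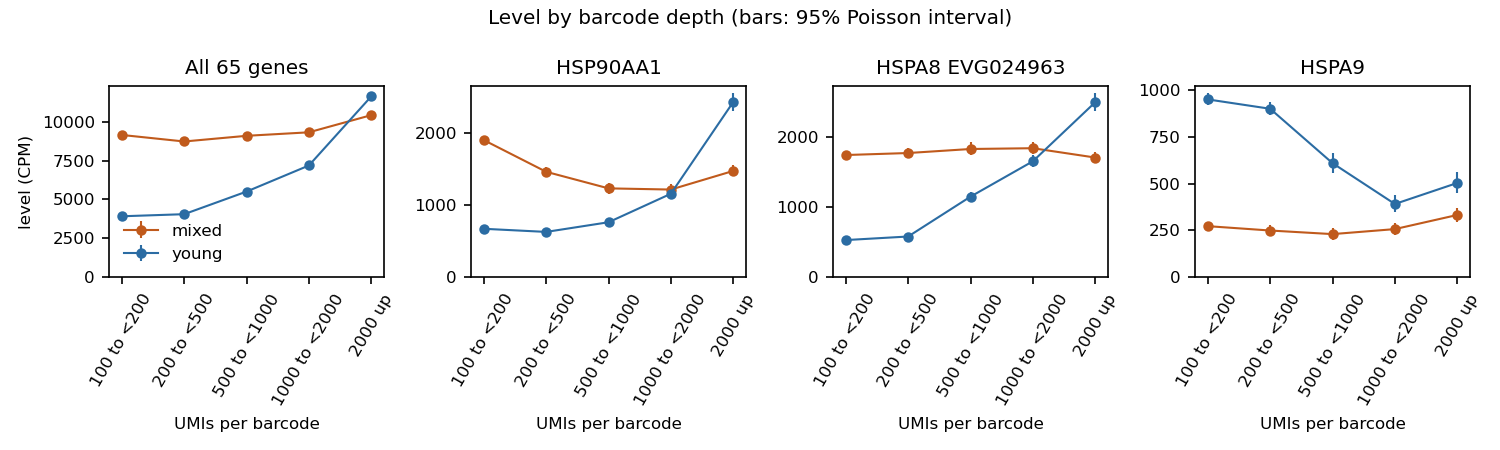
Level in CPM (vertical axes, linear from 0) of all 65 genes, HSP90AA1, HSPA8 (EVG024963) and HSPA9 by UMIs per barcode (horizontal axis, 5 bins), mixed and young; bars are exact 95% Poisson intervals. The mixed line for all genes stays between 8728 and 10425 CPM, and the young line climbs to 11631 CPM in the deepest bin, where it passes the mixed one.

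Other genes of the chaperone system were compared as lists beside the members. Of 11 compared co-chaperones, 5 were at least 2-fold higher in the mixed sample and 1 lower, beside 32.8% and 16.9% of all genes, with a median log2 ratio of 0.83 beside 0.52 for all genes. PTGES3, the Hsp90 co-chaperone p23, was 5.22-fold higher, at 201 CPM in the mixed and 38.5 CPM in the young sample, with 421 CPM in MY1, 428 CPM in MY2 and between 50.5 and 225 CPM in the other mixed codes, against 49.7 CPM in CH1, 38.0 CPM in CH2 and 19.1 CPM in Y2. The others past 2-fold were TTC4, PPP5C, CHORDC1 and BAG2, the last with 66 counts in the mixed and 0 in the young sample. SGTA was the lower one, at 7.20 CPM in the mixed and 36.7 CPM in the young sample. STIP1, the adaptor between Hsp70 and Hsp90, was 1.78-fold higher (1.48 to 2.15). Of 9 other chaperones 5 were at least 2-fold higher and 0 lower, beside the same 32.8% and 16.9%, with a median of 1.37: HSPA5, the Hsp70 of the endoplasmic reticulum, was at 611 CPM in the mixed and 212 CPM in the young sample, GRPEL1, the exchange factor of mitochondrial Hsp70, at 86.4 CPM in the mixed and 23.3 CPM in the young sample, and CANX, CLPB and VBP1 were the others.

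HSF1, the transcription factor that induces heat shock genes, was 1.69-fold higher (1.41 to 2.05), at 124 CPM in the mixed and 73.5 CPM in the young sample. Of 8 immediate early and general stress genes, 1 was at least 2-fold higher and 1 lower, beside 32.8% and 16.9%, with a median of 0.05. The higher one was 1 of 2 genes named SQSTM1, an autophagy receptor, with 76 counts in the mixed and 22 in the young sample. It was highest in FYB at 52.0 CPM and in Y2 at 38.1 CPM, with 0 CPM in F4W, FO1, MY2 and CH2. The other SQSTM1 gene had 144 counts in the mixed and 170 in the young sample, a ratio of 0.705 (0.561 to 0.886). The gene at least 2-fold lower was ATF3, a stress-response factor, at 13.7 CPM in the mixed and 93.3 CPM in the young sample. ATF3 had at most 23.2 CPM in any mixed code, against 106 CPM in CH1, 90.1 CPM in CH2 and 76.2 CPM in Y2. Among the 8, MDGA1, MYCN, DUSP10 and ATF5 were listed only through their fly names, SR, MYC, PUC and CRC. JUN, with 6 counts in the mixed and 0 in the young sample, and EGR2, with 1 and 7, were under 50 counts and not compared. No gene named FOS was found, so the median of the 8 says little about these immediate early genes. The part of dissociation in the chaperone levels was not tested, since both samples were dissociated and no undissociated material was analysed here.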

How the data were processed

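The authors deposited, per sample, a matrix of raw UMI counts per gene and barcode, and the values are whole numbers with no sign of normalization. Aligner, genome build and annotation are not given in the sources used here. Barcode lists carry no sequence, so barcodes shared between libraries were not analysed here; no doublet caller was applied. Counts were summed over barcodes of at least 500 UMIs and divided by the total (CPM). Ratios were taken for genes whose 2 sums held 50 or more counts together. Intervals are exact Poisson or conditional binomial intervals (95%). For ratios a sum under 3 counts was set to a floor of 3 counts, and a ratio so obtained is not a bound. Barcodes were scaled to 10000 counts, reduced to 2000 variable genes and 30 principal components without the members, and clustered (Leiden, 15 neighbours, resolution 1; scanpy 1.11.5, igraph 0.11.9). A cluster was named from at least 3 markers at 4-fold in 10% of its barcodes and 1 among its 10 leading genes, a rule set after values were seen. Calculations used Python 3.11.15, numpy 2.4.6, scipy 1.17.1 and pandas 2.3.3, and edgeR 4.0.16 gave TMM factors. The scripts were tested on simulated data. Named genes are those past 2-fold, the 2 with most counts per family, all TRiC subunits, and those with over 60% of counts in 1 code; others are named where a comparison turned on them, after their values were seen. The members and all lists were chosen with earlier results of these data known. No member matched the RefSeq table given, so no sequence is shown.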

Additional observations from a re-analysis of the deposited data

Results flagged for a closer look

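HSPA8 (EVG026808) ran in opposite directions in the epidermis-like barcodes of the 2 samples: its ratio over the other barcodes was 0.174 in the mixed sample (0.0637 to 0.379, 6 counts) and 2.20 in the young sample (1.52 to 3.08, 36 counts). The difference between these ratios was not tested.

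Barcodes of 100 to under 500 UMIs, which the comparisons leave out, also held chaperone counts: 8992 CPM in the mixed and 3967 CPM in the young sample, far above the floors of 0.812 CPM and 0.486 CPM. By code these shallow barcodes had between 7013 and 13672 CPM in the mixed sample, against 3976 CPM in CH1, 4013 CPM in CH2 and 3909 CPM in Y2 in the young sample.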

How the results depend on the processing

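Ratios are mixed over young. No paired analysis was possible because each group has 1 sample. Summed levels followed depth and scaling. For all members, TRiC, Hsp70, J-domain and Hsp90 genes they were 1.42, 1.50, 1.27, 1.78 and 1.20 at a minimum of 300 UMIs; 1.08, 1.10, 1.03, 1.38 and 0.841 at 1000 UMIs, where HSPB was 1.11; and 0.896, 0.864, 0.894, 1.26 and 0.661 at 2000 UMIs, where HSPB was 1.09 and Hsp60 1.27. Over every deposited barcode they were 1.88, 1.98, 1.55, 2.40 and 1.84, with HSPB 2.38, Hsp10 14.8 and Hsp60 3.52. Under TMM scaling they were 0.928, 0.962, 0.852, 1.17 and 0.759, with HSPB 1.03 and Hsp60 1.38. Summing all genes with a shared identifier gave Hsp70 1.10. That sum took in genes that are not members, since identifier EVG028470 was on 26 genes, of which 1 was a member. It is thus not a value for the members alone.

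Leaving out 1 code at a time, the ratio of all members was 1.47 without FYB, 1.29 without FYH, 1.19 without MY1, 1.09 without MY2, 1.30 without CH1, 1.36 without CH2 and 1.12 without Y2. In the same order TRiC was 1.56, 1.35, 1.21, 1.10, 1.35, 1.41 and 1.16, and Hsp70 was 1.44, 1.19, 1.08, 0.945, 1.18, 1.22 and 1.05. Hsp90 was 1.14 without FYB, 1.07 without FYH, 0.931 without MY2, 1.06 without CH1, 1.19 without CH2 and 0.879 without Y2. J-domain genes were 1.67 without FYB, 1.67 without CH1 and 1.45 without Y2. HSPB was 1.84 without FYB and 1.11 without MY2, and Hsp60 was 2.37 without CH1. Without both MY1 and MY2, all members, HSPB, TRiC, Hsp70, J-domain and Hsp90 genes were 1.01, 0.985, 0.970, 0.829, 1.49 and 0.888. The 7 members past 4-fold and 13 past 2-fold became 4 and 8 at 1000 UMIs, 4 and 8 without MY2, and 2 and 7 without MY1 and MY2; the other 28 of 34 counts were within 1.5 times. The cause of these changes was not tested.

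Of 416 recomputed ratios of named members, 135 moved beyond their counting interval. Of 30 recomputed cluster values 6 moved, HSPA8 (EVG013942) in cluster 9 to 101-fold at 1000 UMIs. The minimum of 2000 UMIs, the omission of MY1 with MY2 and the cluster alternatives were chosen after seeing the data. With 1 sample per group, differences between animals are unmeasured, and depth limits genes under 50 counts.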
